A study of Homo sapiens with 12 samples.

Results

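The long noncoding RNA genes that carry a LINC name and a number were followed in a chidamide experiment on 2 lymphoma cell lines. Members were chosen by their symbol, without an antisense suffix, and by raw counts that summed to 50 or more over the 12 libraries. This gave 212 members among 878 LINC-named genes and 26364 genes in all. The groups were chidamide-treated and vehicle-treated libraries labelled JeKo-1 and chidamide-treated and vehicle-treated Granta-519 libraries, 3 of each, with chidamide at 4 µM or vehicle for 12 h. Both lines are established and derive from a B-cell cancer, mantle cell lymphoma, and chidamide is an inhibitor of histone deacetylases. By its title, the study asked how chidamide acts on double expressor lymphoma through MYC. No genotype, transgene or spike-in was named, and nothing in the labels tells separate cultures from repeat libraries of 1 culture, so the p-values measure the spread between these libraries.

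A LINC symbol is a placeholder for a transcript that lies between coding genes and has no known protein. Most such RNAs are spliced and polyadenylated like messenger RNA, are present at low levels, and are often restricted to few cell types. Some act as scaffolds that bind proteins, some act on a neighbouring gene, some hold microRNA hairpins, and others turned out to encode small proteins and were renamed. Histone deacetylases remove acetyl groups from histones, and their inhibition is known to change the output of many promoters in both directions.

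Both sets of libraries carried the B-cell genes of the marker list (7 of 7 with counts in every group). The mantle cell genes divided them: SOX11, a marker of this lymphoma, had no count in the 6 libraries labelled JeKo-1, and CCND1, the cyclin D1 gene, averaged 0.933 CPM in the chidamide and 0.123 CPM in the vehicle libraries of that label. The same 2 genes averaged 133 and 1746 CPM in chidamide-treated and 156 and 2113 CPM in vehicle-treated Granta-519. CPM are counts scaled to the usual common library total with TMM factors. As this goes against the line's name, the text speaks of the JeKo-1 label. Library totals ran from 12873642 to 16592694 counts. In a bulk library, fewer cells of a kind and less RNA per cell cannot be told apart.

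The members took a small share of each library. They held 0.199 to 0.203% of the counts in chidamide and 0.130 to 0.132% in vehicle libraries of the JeKo-1 label, and 0.216 to 0.221% in chidamide-treated and 0.168 to 0.169% in vehicle-treated Granta-519. The shares of the chidamide and vehicle libraries did not overlap in either line. Between 186 and 191 members had a count in a chidamide library of the JeKo-1 label and 159 to 169 in a vehicle library, against 208 or 209 and 196 to 198 in Granta-519. The median member averaged 2.09 CPM over the 12 libraries, 2 members averaged over 100 CPM, and 66 averaged under 1 CPM. Just inside the rule were LINC00881 and LINC01447 with 50 counts and LINC00862 with 51, and genes just outside it included LINC00239 with 48 and LINC00189 with 47.

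All 212 symbols were found in the RefSeq gene table, where 47 now carry another name. RefSeq types 194 as long noncoding RNA, 14 as protein-coding and 4 as transcribed pseudogenes. The gene bodies of 33 members overlap a coding gene there, and as no source used here says whether counting used strand, reads of such a pair may be shared. Promoters, taken as 250 bases before to 50 bases after the RefSeq start, were found for 160 members, credited to RefSeq on GRCh38.p14. The deposited counts were made on hg19. The promoters below are those of 4 members that rose in both lines and of 1 that fell in both. Capitals mark a CCAAT box (CCAAT, or ATTGG on the other strand) or a GC box (GGGCGG, or CCGCCC on the other strand), and no E-box (CACGTG, which reads the same on both strands and is the site known for MYC) was found in any of the 5.
BTG2-DT: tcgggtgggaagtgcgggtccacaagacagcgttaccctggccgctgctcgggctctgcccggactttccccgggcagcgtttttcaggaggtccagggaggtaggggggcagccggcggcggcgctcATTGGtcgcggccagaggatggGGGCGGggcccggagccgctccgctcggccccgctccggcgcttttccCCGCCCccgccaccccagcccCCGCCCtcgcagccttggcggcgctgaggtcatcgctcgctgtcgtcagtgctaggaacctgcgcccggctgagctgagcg
RB1-DT: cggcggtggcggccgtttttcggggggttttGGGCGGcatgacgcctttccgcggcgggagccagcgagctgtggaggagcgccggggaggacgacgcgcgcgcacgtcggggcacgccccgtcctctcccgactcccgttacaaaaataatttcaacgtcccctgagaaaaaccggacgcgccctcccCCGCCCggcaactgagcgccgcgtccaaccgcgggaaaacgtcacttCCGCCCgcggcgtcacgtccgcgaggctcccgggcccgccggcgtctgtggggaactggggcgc
MROCKI: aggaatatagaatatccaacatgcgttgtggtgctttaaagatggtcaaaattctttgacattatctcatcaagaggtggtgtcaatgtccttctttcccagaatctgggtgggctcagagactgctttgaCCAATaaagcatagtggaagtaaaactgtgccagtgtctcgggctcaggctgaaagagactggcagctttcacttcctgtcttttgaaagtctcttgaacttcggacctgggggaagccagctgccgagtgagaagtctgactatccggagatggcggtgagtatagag
LINC01094: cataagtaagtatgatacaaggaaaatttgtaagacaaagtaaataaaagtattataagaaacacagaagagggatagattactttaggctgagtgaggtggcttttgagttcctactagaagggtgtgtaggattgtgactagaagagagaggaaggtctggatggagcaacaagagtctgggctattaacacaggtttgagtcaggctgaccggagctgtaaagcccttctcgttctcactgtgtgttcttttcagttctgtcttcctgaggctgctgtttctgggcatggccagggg
CHASERR: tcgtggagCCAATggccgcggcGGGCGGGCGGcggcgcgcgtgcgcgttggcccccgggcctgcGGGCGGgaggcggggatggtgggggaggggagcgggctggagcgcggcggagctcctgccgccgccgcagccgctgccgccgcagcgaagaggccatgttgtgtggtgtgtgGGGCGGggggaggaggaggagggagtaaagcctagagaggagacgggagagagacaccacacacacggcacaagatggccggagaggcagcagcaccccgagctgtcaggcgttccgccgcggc
BTG2-DT is the present name of LINC01136 (chr1:203305276-203305575, minus strand), RB1-DT of LINC00441 (chr13:48303653-48303952, minus strand), MROCKI of LINC01268 (chr6:113873298-113873597, minus strand) and CHASERR of LINC01578 (chr15:92882593-92882892, plus strand). LINC01094 lies at chr4:78645744-78646043 on the plus strand. BTG2-DT, RB1-DT and CHASERR start in sequence of 73.3, 71.3 and 74.7% G and C, with 34, 48 and 36 CpG dinucleotides and 3, 3 and 4 GC boxes, of which 2 overlap in CHASERR. MROCKI and LINC01094 start in sequence of 46.7 and 43.7% G and C, with 6 and 2 CpG and no GC box. Genes that rose in both lines thus stand on both kinds of start.

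Over all members, promoters held a median of 55.0% G and C and 9 CpG, against 58.3% and 14 over the 27305 promoters of full length in the table. An E-box was present in 12.5% of member promoters and 7.4% of all, a CCAAT box in 41.9 and 35.7%, and a GC box in 42.5 and 44.6%. Among the 54 members with a promoter that were called higher in both lines, the median was 8 CpG and 16.7% held an E-box. Among the 16 called lower in either line the median was 18 CpG and 12.5%, or 2 promoters, held an E-box. Among the 28 called in neither line the median was 6.5 CpG and 7.1%, or 2 promoters, held an E-box. The median share of G and C in these sets was, in that order, 59.0, 58.0 and 53.0%. These are descriptions of letters in a window and were not tested.

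Chidamide was tested against vehicle within each line by edgeR's quasi-likelihood test over 15087 genes, with Benjamini-Hochberg adjustment over all of them and a threshold of 0.05. The low-count filter passed 199 members. Of these, 49 met it only with the chidamide libraries counted. Passing in this way favours a member that is higher with chidamide. The same count over all tested genes was not made, so how far this weighs on the comparison with them is not known. Counts of members are therefore given as descriptions beside those of all tested genes, and so are the p-values of such members. Among those named with values, they are LINC00299, LINC00441, LINC00461, LINC00462, LINC00472, LINC00598, LINC00635, LINC00652, LINC00861, LINC00950, LINC01018, LINC01087, LINC01094, LINC01185, LINC01279 and LINC01485. In libraries of the JeKo-1 label 114 members were higher (57.3%) and 13 lower (6.53%), where 35.3% of all tested genes were higher and 31.1% lower. In Granta-519, 103 members were higher (51.8%) and 13 lower (6.53%), where 39.6% of all tested genes were higher and 31.3% lower. The median log2 change over the tested members was 0.94 under the JeKo-1 label and 0.56 in Granta-519, against 0.04 and 0.08 over all tested genes. With groups at 0 counts set to their bound, and genes left out where no bound could be set, the medians were 0.92 over 176 members and 0.57 over 196. The same medians over all tested genes were 0.07 and 0.09. The 13 lower calls under the JeKo-1 label became 7 with upper-quartile scaling or library totals alone and 8 without chidamide replicate 1.

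**Figure D1:**
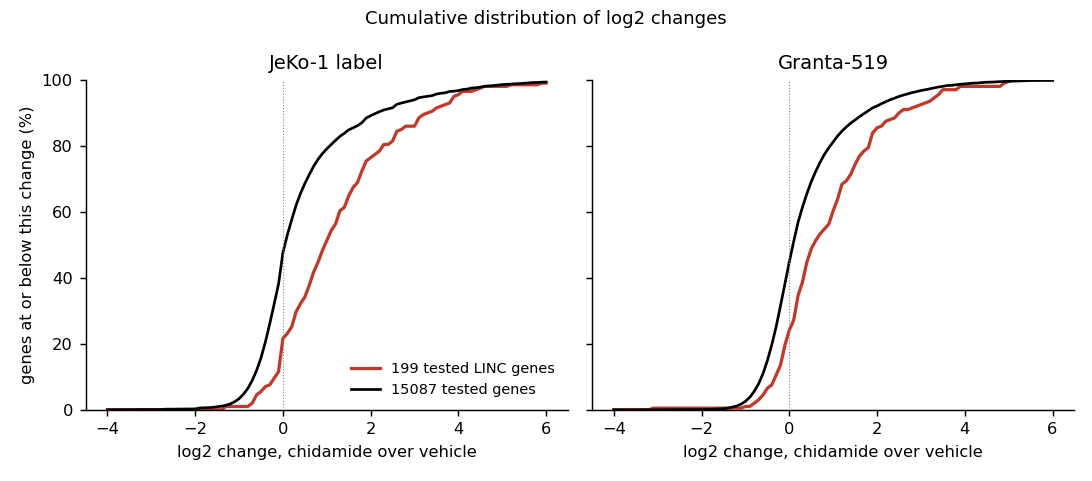
Cumulative share (%) of the 199 tested LINC genes (red) and of all 15087 tested genes (black) at or below each log2 change, chidamide over vehicle, under the JeKo-1 label (left) and in Granta-519 (right). The red curve lies to the right of the black around the middle of both panels, with medians of 0.94 against 0.04 and 0.56 against 0.08.

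Of the tested members, 79 under the JeKo-1 label (39.7%) and 75 in Granta-519 (37.7%) were called higher by 2-fold or more, beside 17.1 and 18.2% of all tested genes. Lower by 2-fold or more were 2 (1.01%) and 1 (0.503%), beside 2.65 and 2.41% of all tested genes. In both lines 77 members were higher (38.7% of the tested members, 24.1% of all tested genes) and 6 were lower (3.0 and 22.4%). LINC01089, a transcript lost in aggressive breast cancer and also called LIMT, was the 1 member called in opposite directions. It was higher under the JeKo-1 label and lower in Granta-519, as were 2.18% of all tested genes. It overlaps the coding gene SETD1B, so reads may be shared. No member was lower under the JeKo-1 label and higher in Granta-519, where 2.98% of all tested genes were. In neither line were 40 members called (20.1%), beside 14.4% of all tested genes. Across the 162 members with counts in all 4 groups the changes in the 2 lines had a Pearson r of 0.645, beside 0.66 across 13653 genes. Genes within a library are not independent and the lines share the fit, so this is a description.

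**Figure D2:**
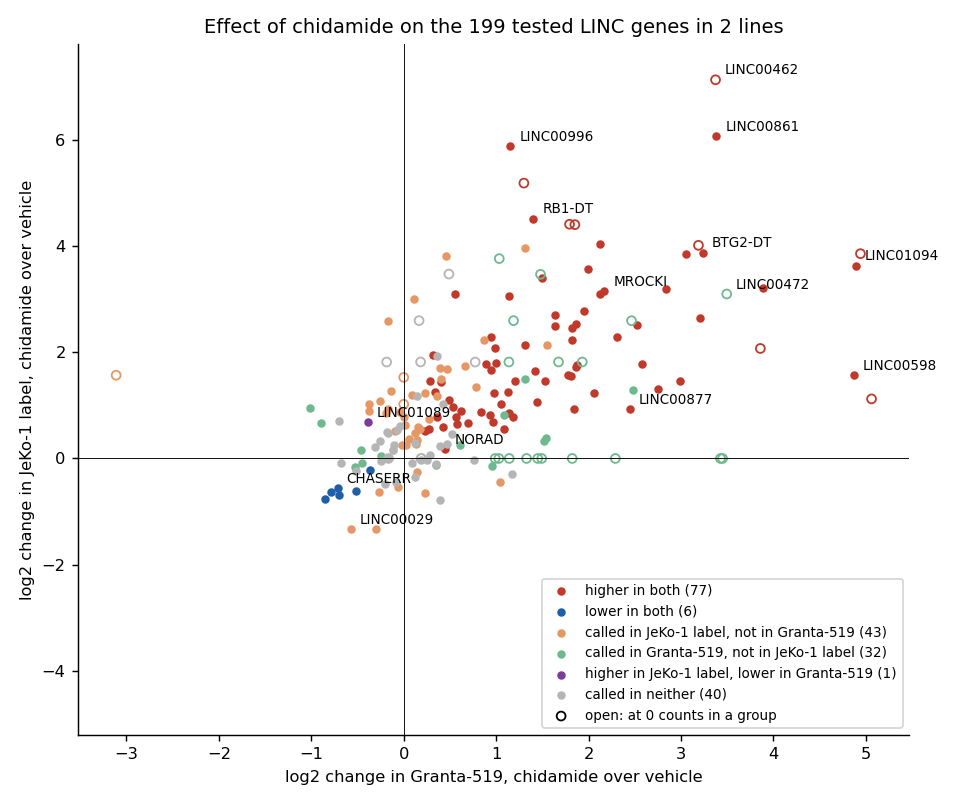
Log2 change with chidamide for each of the 199 tested LINC genes, JeKo-1 label on the vertical and Granta-519 on the horizontal axis, coloured by the calls and open where a group of 3 libraries had no count. The 77 genes higher in both lines fill the upper right, and the 6 lower in both sit close to the origin at the lower left.

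Members were set beside all tested genes of the same class of mean level. The top class has no upper bound and only 2 members averaged 100 CPM or more, so levels were not matched within it. Of the 47 members with a mean of 10 CPM or more, 76.6% were higher and 10.6% lower under the JeKo-1 label, against 30.0% and 45.9% of all 9511 tested genes at that level. In Granta-519 the same members were 51.1% higher and 10.6% lower, against 31.6% and 44.7%. The median log2 changes there were 0.65 for members and -0.11 for all genes under the JeKo-1 label, and 0.23 and -0.09 in Granta-519. Between 1 and 10 CPM, the 99 members and the 3927 genes had 51.5 against 46.0% higher and 8.1 against 7.7% lower under the JeKo-1 label, and 47.5 against 52.8% higher and 7.1 against 11.3% lower in Granta-519, with medians of 0.93 against 0.63 and 0.54 against 0.55. Under 1 CPM, 50.9% of 53 members and 40.0% of 1649 genes were higher under the JeKo-1 label, and 60.4 and 53.9% in Granta-519, with medians of 1.70 against 1.27 and 1.55 against 1.22. No difference between levels was tested.

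**Figure D3:**
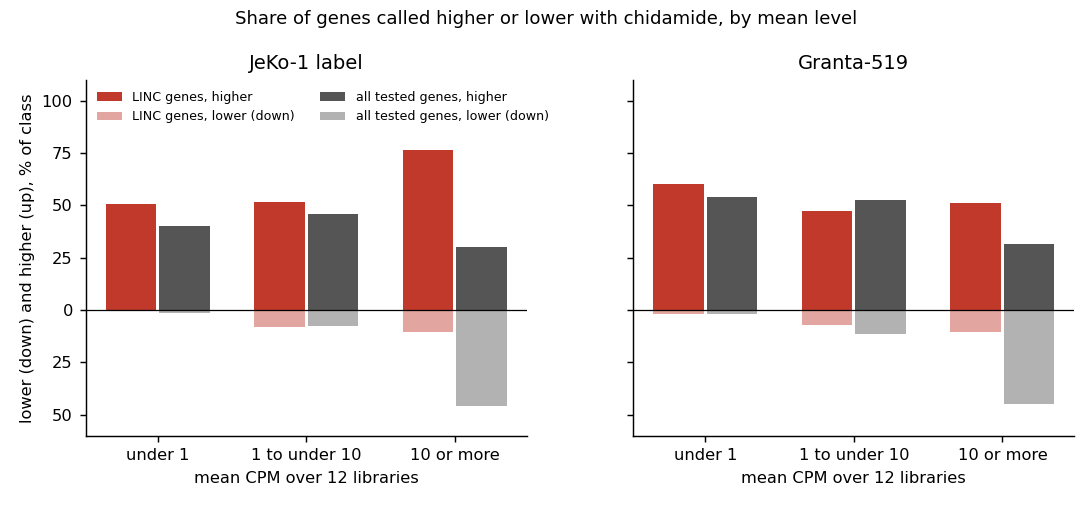
Share (%) of LINC genes (red) and of all tested genes (grey) called higher (upward bars) or lower (pale, downward bars) with chidamide, by mean CPM over the 12 libraries. At 10 CPM or more, 10.6% of LINC genes were lower in each panel, against 45.9% and 44.7% of all tested genes.

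Among the most abundant members, the largest counts belonged to LINC00657, now NORAD, an RNA that binds PUMILIO proteins and is known for guarding chromosome number. NORAD had 386, 363 and 363 CPM in chidamide and 334, 317 and 337 CPM in vehicle libraries of the JeKo-1 label, and 406, 420 and 434 CPM in chidamide-treated and 302, 295 and 325 CPM in vehicle-treated Granta-519. The groups did not overlap in either line, and the log2 changes were 0.17 ± 0.04 (SE, adjusted p = 0.00026) and 0.45 ± 0.04 (adjusted p = 2.5e-14). It made up 18.9% of all member counts in chidamide and 23.4% in vehicle libraries of the JeKo-1 label, and 19.7 and 18.7% in Granta-519.

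LINC01000 came next, with 148, 140 and 150 CPM in chidamide and 140, 144 and 138 CPM in vehicle libraries of the JeKo-1 label, and 77.4, 79.2 and 80.8 CPM against 99.3, 101 and 81.8 CPM in Granta-519. It fell in Granta-519 by 0.25 ± 0.06 (adjusted p = 0.00014), although vehicle replicate 3 lay close to the chidamide libraries. Its change under the JeKo-1 label, 0.05 ± 0.05, did not pass (adjusted p = 0.38), but did with upper-quartile scaling (0.20, adjusted p = 0.0011) and with library totals alone (0.18, adjusted p = 0.0022).

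LINC00926, a transcript known from B cells, had 81.1, 85.6 and 90.9 CPM in chidamide and 55.8, 60.3 and 59.6 CPM in vehicle libraries of the JeKo-1 label. In Granta-519 it had 84.5, 76.3 and 82.7 CPM with chidamide and 70.0, 64.5 and 66.8 CPM with vehicle. It rose in both lines, by 0.55 ± 0.06 (adjusted p = 4.7e-12) and 0.28 ± 0.06 (adjusted p = 3.6e-05), with no overlap of groups. LINC01215 rose by nearly equal amounts, 0.88 ± 0.06 (adjusted p = 2.8e-18) and 0.84 ± 0.06 (adjusted p = 2.0e-18). It averaged 67.6 ± 1.8 CPM with chidamide and 36.7 ± 2.2 with vehicle under the JeKo-1 label, and 84.7 ± 2.0 and 47.4 ± 1.6 in Granta-519 (SD, n = 3 each). The difference of its changes between lines was 0.05 ± 0.09 (adjusted p = 0.73).

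Levels of different genes can be compared only per length, for which the authors' second table of length-scaled scores serves. On that scale NORAD averaged 14.1 ± 0.5 with chidamide and 11.4 ± 0.4 with vehicle under the JeKo-1 label and 16.0 ± 0.6 and 11.8 ± 0.6 in Granta-519 (SD, n = 3 each). LINC01480 stood beside it in Granta-519, at 16.5 ± 1.2 with chidamide and 15.4 ± 0.7 with vehicle, but at 0.789 ± 0.082 and 0.0858 ± 0.0208 under the JeKo-1 label. LINC00493, now SMIM26, a small mitochondrial protein, stood beside it under the JeKo-1 label, at 11.1 ± 1.2 with chidamide and 11.6 ± 0.8 with vehicle. These pairs did not differ beyond their spread in those groups, with exceptions. LINC01480 was above NORAD in vehicle-treated Granta-519, and NORAD was above SMIM26 in chidamide libraries of the JeKo-1 label. Near SMIM26 in those chidamide libraries were also LINC00998, at 11.4 ± 0.7, and LINC01021, at 10.6 ± 0.6. With vehicle under that label LINC00998 was at 3.83 ± 0.57 and LINC01021 at 3.52 ± 0.36.

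Of the list of LINC genes with a known product or role, 16 of 27 were tested. Of these, 11 were higher and 5 lower under the JeKo-1 label and 8 were higher and 5 lower in Granta-519, with medians of 0.58 and 0.34. All tested genes were 35.3% higher and 31.1% lower, and 39.6% and 31.3%, beside 31.2% lower for the list in each line. LINC00998, now SMIM30, encodes a small membrane protein. SMIM30 had 70.7, 64.0 and 63.8 CPM in chidamide and 24.8, 20.7 and 27.6 CPM in vehicle libraries of the JeKo-1 label, and 31.8, 32.0 and 31.9 CPM against 22.2, 22.2 and 28.3 CPM in Granta-519. It rose by 1.44 ± 0.08 (adjusted p = 1.3e-21) and 0.40 ± 0.09 (adjusted p = 7.8e-05). LINC01420, now NBDY, encodes a small protein of the messenger RNA decapping machinery and rose under the JeKo-1 label, by 0.60 ± 0.10 (adjusted p = 5.1e-07). In Granta-519 its change was 0.16 ± 0.09 (adjusted p = 0.096), which passed without chidamide replicate 1 (adjusted p = 0.039), with upper-quartile scaling (0.0072) and with RLE size factors (0.039).

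Small-protein genes did not all move one way. LINC00116, now MTLN, encodes mitoregulin of the inner mitochondrial membrane. MTLN had 3.78, 4.05 and 4.64 CPM in chidamide and 5.67, 7.42 and 8.28 CPM in vehicle libraries of the JeKo-1 label, and 6.23, 6.28 and 4.95 CPM against 10.2, 10.9 and 10.3 CPM in Granta-519. It fell in both lines with no overlap, by 0.77 ± 0.16 (adjusted p = 5.5e-05) and 0.85 ± 0.14 (adjusted p = 7.5e-07). SMIM26 fell in Granta-519 by 0.37 ± 0.11 (adjusted p = 0.0032), with 10.1, 10.9 and 10.2 CPM after chidamide and 11.9, 14.7 and 13.7 CPM after vehicle. The fall of SMIM26 under the JeKo-1 label, 0.21 ± 0.09 (adjusted p = 0.032), was lost in 9 of the 19 alternatives, with adjusted p from 0.057 to 0.54. Among these were the fits without chidamide replicate 1 (0.33), vehicle replicate 1 (0.18) and vehicle replicate 2 (0.064). Of the 14 members that RefSeq types as protein-coding, 7 were higher and 3 lower under the JeKo-1 label and 6 and 3 in Granta-519. The shares over all tested genes were 35.3% higher and 31.1% lower, and 39.6% and 31.3%. LINC00634, now SMIM45, and LINC00176, now C20orf204, are named here after their values were seen. SMIM45 rose by 1.23 ± 0.18 (adjusted p = 1.8e-08) and 2.06 ± 0.19 (adjusted p = 2.3e-14), and C20orf204 by 1.26 ± 0.15 (adjusted p = 7.6e-11) and 0.34 ± 0.07 (adjusted p = 3.9e-05).

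LINC01578, now CHASERR, lies beside CHD2, the gene of a chromatin remodeller, and is known in human and mouse for keeping CHD2 low. CHASERR had 28.6, 24.8 and 27.2 CPM in chidamide and 40.0, 42.2 and 36.7 CPM in vehicle libraries of the JeKo-1 label, and 59.0, 57.0 and 53.2 CPM against 93.5, 84.6 and 99.9 CPM in Granta-519. It fell in both lines with no overlap, by 0.56 ± 0.08 (adjusted p = 5.3e-09) and 0.72 ± 0.06 (adjusted p = 1.3e-14). CHD2 rose, by 0.85 ± 0.05 (adjusted p = 6.0e-21) and 0.33 ± 0.04 (adjusted p = 3.0e-09), and averaged 110 CPM with chidamide and 61.1 CPM with vehicle under the JeKo-1 label and 268 and 213 CPM in Granta-519. Whether the 2 changes are linked was not tested.

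LINC00094, now BRD3OS, overlaps BRD3, the gene of a protein that reads acetylated histones. BRD3OS had 27.6, 30.1 and 26.3 CPM in chidamide and 43.9, 47.4 and 44.8 CPM in vehicle libraries of the JeKo-1 label, and 12.7, 12.99 and 13.35 CPM against 18.6, 21.6 and 23.1 CPM in Granta-519. It fell by 0.70 ± 0.08 (adjusted p = 3.4e-11) and 0.70 ± 0.10 (adjusted p = 6.7e-09). BRD3 fell under the JeKo-1 label by 0.68 ± 0.07 (adjusted p = 1.3e-12), while in Granta-519 its change was 0.00 ± 0.06 (adjusted p = 0.97). Reads of the pair may be shared.

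The falls were few and mostly small. LINC00029 and LINC00852 fell most under the JeKo-1 label, each by 1.33 (SE 0.24 and 0.35, adjusted p = 1.8e-06 and 0.00076). LINC00029 had 2.66, 1.64 and 2.04 CPM with chidamide and 5.12, 4.72 and 6.38 CPM with vehicle there. In Granta-519 its change of -0.57 ± 0.29 (adjusted p = 0.079) passed without vehicle replicate 3 (-0.80, adjusted p = 0.019). LINC00896 fell in Granta-519 by 0.90 ± 0.26 (adjusted p = 0.0018), at 2.60, 1.91 and 1.97 CPM with chidamide and 5.21, 3.48 and 3.40 CPM with vehicle. LINC01311 fell there by 0.78 ± 0.21 (adjusted p = 0.00068) and under the JeKo-1 label by 0.62 ± 0.19 (adjusted p = 0.0039), a call lost without chidamide replicate 1 (adjusted p = 0.071). LINC00987 fell under the JeKo-1 label by 0.64 ± 0.27 (adjusted p = 0.030), which was lost in 9 of 19 alternatives, including those without chidamide replicate 2 (0.064) or 3 (0.18) and vehicle replicate 2 (0.091) or 3 (0.051).

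LINC00152, now CYTOR, a transcript often raised in solid cancers, was a gene of the JeKo-1 label: it had 10.2, 8.89 and 10.2 CPM with chidamide and 11.8, 15.1 and 12.9 CPM with vehicle, and at most 7 counts in any Granta-519 library. It fell by 0.43 ± 0.15 (adjusted p = 0.0099), a call that was lost without chidamide replicate 2 (adjusted p = 0.062) or vehicle replicate 2 (0.071), with upper-quartile scaling (0.089) and with library totals alone (0.073). In Granta-519 its change of 1.04 ± 0.79 (adjusted p = 0.24) passed without chidamide replicate 3 (0.047) or vehicle replicate 1 (0.029).

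The strongest rises under the JeKo-1 label began from counts near 0. LINC00462 had 16, 16 and 23 counts in chidamide and none in vehicle libraries, at least 15.7-fold higher against a floor of 3 counts over the vehicle group. LINC00861, a transcript known from lymphocytes, had 33, 37 and 34 counts against 1, 0 and 0, a ratio of 89.2 with a 95% exact counting interval from 15.7 to 3560. LINC00996, which lies in the cluster of GIMAP genes of lymphocytes, had 57, 59 and 44 counts against 1, 0 and 1, a ratio of 68.6 (18.7 to 571). The chidamide and vehicle libraries were separate for each of the 3. LINC00462 and LINC00861 met the count filter only with chidamide libraries counted, so no p is given for them, while LINC00996 also met it in vehicle-treated Granta-519 (adjusted p = 1.3e-16). LINC00540 reached 2, 5 and 7 counts against none (at least 4.00-fold higher, adjusted p = 0.0017). LINC00950 and LINC00652 rose with 25 and 42 counts over the 3 chidamide libraries against 1 and 2 over the vehicle libraries. LINC00299 rose with 6 counts against 0, which is only at least 1.7-fold against the floor. LINC00950, LINC00652 and LINC00299 likewise met the filter only with chidamide libraries counted, so the p-values given for LINC00299 are descriptions. The call of LINC00299 (adjusted p = 0.032) was lost without chidamide replicate 2 (0.054) or 3 (0.089) and without vehicle replicate 1 (0.080), 2 (0.076) or 3 (0.067). RefSeq places the LINC00950 symbol under the coding gene TMEM8B, so its reads may belong to that gene.

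In all, 35 members had no count in the 3 vehicle libraries of the JeKo-1 label. After chidamide 15 of them still had none, 18 had 1 to 9 counts over the 3 libraries, and 2, LINC00462 and LINC00540, had 10 or more. In Granta-519, 6 members had no vehicle count, of which 2 still had none, 1 had 1 to 9 and 3 had 10 or more after chidamide. Most of the 35 members silent in vehicle under the JeKo-1 label thus had fewer than 10 counts after chidamide. The same split over all genes was not counted, so it does not show whether members differ from other genes. Between 14076 and 14120 tested genes had a count in a chidamide library of that label and 13176 to 13425 in a vehicle library.

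LINC01094 was among the members with the largest fitted rises in Granta-519. It had 110, 149 and 143 counts in chidamide and 6, 6 and 2 in vehicle libraries, or 7.53, 10.5 and 9.69 CPM against 0.391, 0.380 and 0.133 CPM. Under the JeKo-1 label it had 4.13, 4.05 and 3.24 CPM with chidamide and 0.342, 0.0749 and 0.497 CPM with vehicle. The rises were 4.89 ± 0.29 and 3.63 ± 0.36, with every chidamide library above every vehicle library. LINC01094 met the filter only with chidamide libraries counted, so no p is given for it. ANXA3, the annexin gene beside it, rose in Granta-519 by 3.65 ± 0.39 (adjusted p = 2.8e-12), while under the JeKo-1 label its change of 2.04 ± 1.29 did not pass (adjusted p = 0.16).

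LINC00472 rose in Granta-519 by 3.50 ± 0.26, with 141, 126 and 130 counts after chidamide and 18, 10 and 9 after vehicle. Under the JeKo-1 label it had 3 counts in 1 chidamide library and none elsewhere. LINC00598, beside the FOXO1 gene, had 14, 8 and 16 counts after chidamide and 0, 1 and 0 after vehicle in Granta-519. The ratio was 40.3, with a counting interval from 6.81 to 1630. FOXO1, which encodes a transcription factor of B-cell development, rose there by 2.78 ± 0.10 (adjusted p = 2.9e-30). Under the JeKo-1 label LINC00598 rose by 1.57 ± 0.40 and FOXO1 by 0.56 ± 0.06 (adjusted p = 4.1e-13 for FOXO1). LINC00635 and LINC01018 had 33 against 2 and 86 against 8 counts over the 3 libraries of each group. LINC00472, LINC00598, LINC00635 and LINC01018 met the filter only with chidamide libraries counted, so no p is given for them.

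Against vehicle groups without a count, 3 further members rose in Granta-519. All 3 met the filter only with chidamide libraries counted, so their p-values are descriptions. LINC01485 had 2, 4 and 5 counts after chidamide, at least 3.89-fold higher than the floor (adjusted p = 0.0024). LINC01279 had 5, 1 and 6 (at least 4.24-fold, adjusted p = 0.0015), and RefSeq now places it under the coding gene CCDC80. LINC01087 had 1, 1 and 3 (at least 1.77-fold, adjusted p = 0.041), a call lost without chidamide replicate 3 (0.14) or without vehicle replicate 1 (0.083), 2 (0.086) or 3 (0.083). LINC01279 also rose under the JeKo-1 label, by 1.12 ± 0.46 (adjusted p = 0.028), which was lost without chidamide replicate 1 (0.18) or vehicle replicate 1 (0.083) or 3 (0.092) and with DESeq2 (0.081).

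Few members hold a microRNA. LINC00461, now MIR9-2HG, is transcribed across a hairpin of miR-9, a microRNA known from neural cells, whose mature strands are given here with the seed (bases 2 to 8) in capitals, from RefSeq on GRCh38.p14.
hsa-miR-9-5p: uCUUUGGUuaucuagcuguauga
hsa-miR-9-3p: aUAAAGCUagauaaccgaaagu
The hairpin lies on chromosome 5, with the 5p strand at chr5:88666902-88666924 and the 3p strand at chr5:88666866-88666887 on the minus strand. The host transcript had 2.33, 2.89 and 1.97 CPM in chidamide-treated and 0.391, 0.506 and 0.533 CPM in vehicle-treated Granta-519 and rose by 2.31 ± 0.39 (adjusted p = 5.6e-07). Under the JeKo-1 label it had 5, 5 and 3 counts against 0, 0 and 2 (ratio 5.57, interval 1.26 to 50.9). That call (adjusted p = 0.032) was lost without chidamide replicate 1 (0.063) or 2 (0.080) and without vehicle replicate 1 (0.14) or 2 (0.12). The host transcript met the filter only with chidamide libraries counted, so its p-values are descriptions. Mature microRNAs are not measured in these libraries. Hairpins also lie in LINC00669 (MIR924HG) and LINC00969 (MIR570HG), neither of which was called in either line. Under the JeKo-1 label LINC00669 had no vehicle count and a fitted change of 0, so no call was possible there.

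LINC01268, now MROCKI, lies beside MARCKS and is known in human monocytes and macrophages for acting on it. MROCKI had 18.5, 21.2 and 18.3 CPM in chidamide and 2.46, 1.35 and 2.73 CPM in vehicle libraries of the JeKo-1 label, and 31.1, 30.6 and 31.4 CPM against 6.32, 6.33 and 8.06 CPM in Granta-519. It rose by 3.15 ± 0.15 (adjusted p = 4.5e-25) and 2.17 ± 0.11 (adjusted p = 5.3e-24). MARCKS, which encodes a substrate of protein kinase C, rose by 1.91 ± 0.26 (adjusted p = 1.3e-08) and 0.46 ± 0.05 (adjusted p = 2.6e-11). Its level differed widely between the lines, with 3.26 CPM after chidamide and 0.835 CPM after vehicle under the JeKo-1 label and 420 and 306 CPM in Granta-519.

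**Figure D4:**
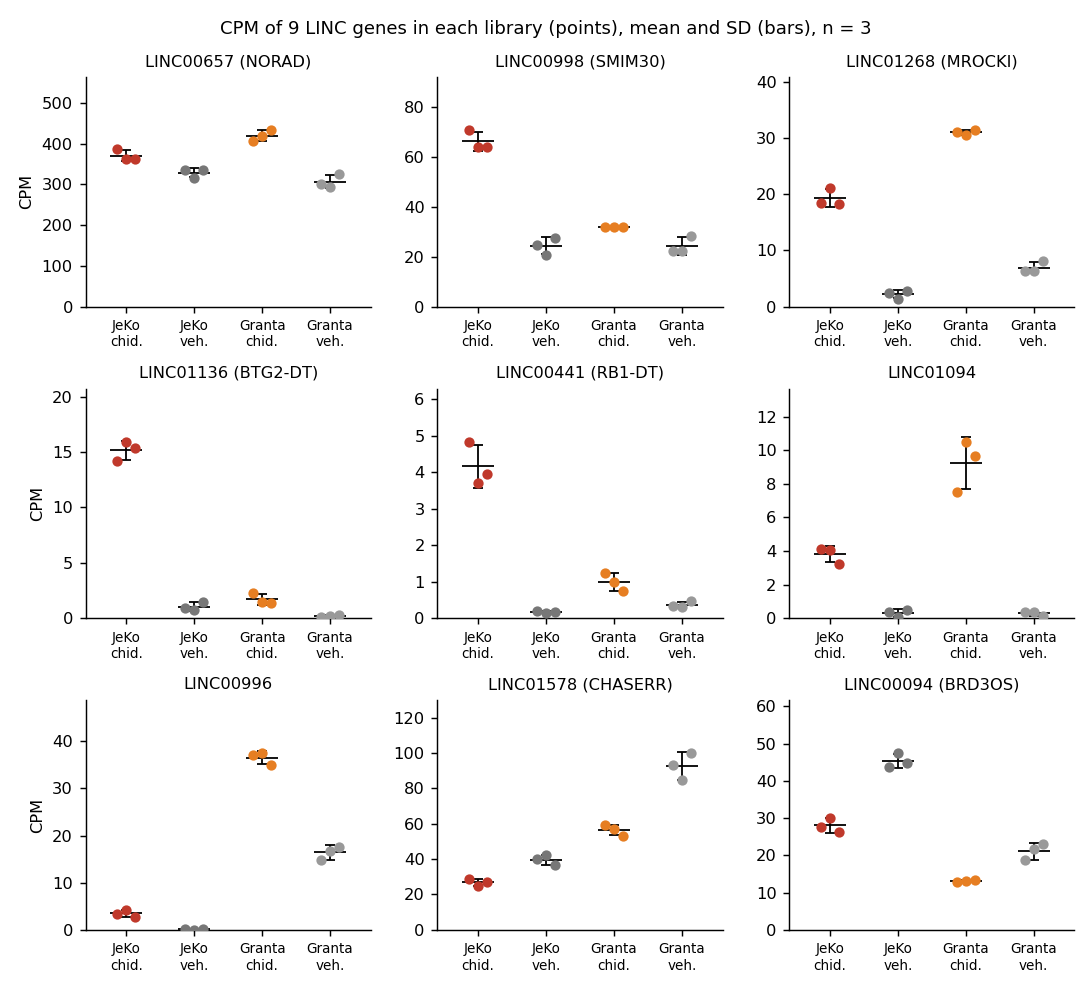
CPM of 9 LINC genes in each of the 12 libraries (points), with the mean (horizontal bar) and SD (whiskers) of the 3 libraries per group, chidamide left of vehicle in each line. LINC01094 reached 7.53 to 10.5 CPM in chidamide-treated Granta-519, while CHASERR and BRD3OS were lower with chidamide in both lines.

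Other members of the list with a known role rose in both lines. LINC00467 rose by 1.67 ± 0.16 (adjusted p = 1.5e-13) and 0.95 ± 0.15 (adjusted p = 2.6e-07). LINC00883, now DUBR and known in mouse muscle cells, rose by 0.94 ± 0.16 (adjusted p = 5.8e-07) and 1.84 ± 0.17 (adjusted p = 8.3e-14). LINC00936, now ATP2B1-AS1 and overlapping the calcium pump gene ATP2B1, rose by 1.77 ± 0.15 (adjusted p = 1.6e-15) and 1.87 ± 0.17 (adjusted p = 7.9e-15), while ATP2B1 rose by 0.37 ± 0.05 and 0.99 ± 0.05 (adjusted p = 2.9e-10 and 8.0e-26). LINC01138 rose under the JeKo-1 label by 0.51 ± 0.12 (adjusted p = 0.00017), and its change in Granta-519 was -0.09 ± 0.12 (adjusted p = 0.50). LINC01021, now PURPL, a target of p53 known for holding p53 down, is named here after its values were seen. It had 56.5, 55.5 and 61.0 CPM in chidamide and 23.2, 19.04 and 20.8 CPM in vehicle libraries of the JeKo-1 label, and 6.91, 5.72 and 6.37 CPM against 2.67, 2.85 and 2.73 CPM in Granta-519. It rose by 1.45 ± 0.08 (adjusted p = 2.1e-22) and 1.20 ± 0.16 (adjusted p = 2.6e-09).

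RefSeq now names 9 members as divergent transcripts, which start near a coding gene and run away from it. This group was formed from the names after values had been seen. Of the 9, 8 were higher and none lower under the JeKo-1 label, and in Granta-519 5 were higher and 1 lower. Among them RB1-DT, REL-DT and ATP13A3-DT (LINC00884) met the filter only with chidamide libraries counted, which favours a higher call. These counts are therefore descriptions. The shares over all tested members were 57.3% higher and 6.53% lower, and 51.8% and 6.53%, and over all tested genes 35.3% and 31.1%, and 39.6% and 31.3%. Their coding partners were higher in 4 and lower in 4 of 9 cases under the JeKo-1 label and higher in 5 and lower in 3 in Granta-519. Rises of divergent transcripts stood beside partners that moved in either direction.

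BTG2-DT lies beside BTG2, an antiproliferative gene and known p53 target. It had 14.2, 15.9 and 15.3 CPM in chidamide and 0.888, 0.749 and 1.49 CPM in vehicle libraries of the JeKo-1 label, and 2.26, 1.48 and 1.35 CPM against 0.0651, 0.190 and 0.266 CPM in Granta-519. The rises were 3.87 ± 0.21 (adjusted p = 3.9e-23) and 3.23 ± 0.45 (adjusted p = 6.2e-09), beside 1.41 ± 0.05 (adjusted p = 1.4e-31) and 1.01 ± 0.05 (adjusted p = 4.1e-24) for BTG2. RB1-DT lies beside RB1, the retinoblastoma tumour suppressor gene. It had 82, 52 and 62 counts in chidamide and 3, 2 and 2 in vehicle libraries of the JeKo-1 label, and 18, 14 and 11 against 5, 5 and 7 in Granta-519. It rose by 4.51 ± 0.41 (adjusted p = 1.4e-14) and 1.40 ± 0.44 (adjusted p = 0.0040), beside 0.63 ± 0.06 and 0.36 ± 0.06 for RB1 (adjusted p = 3.3e-11 and 1.6e-06). LINC01185, now REL-DT, rose by 3.57 ± 0.57 and 2.00 ± 0.57 (adjusted p = 2.4e-07 and 0.0018). REL, an NF-kappaB gene of B cells, rose by 0.42 ± 0.05 and 0.67 ± 0.05 (adjusted p = 1.7e-10 and 1.2e-17). RB1-DT and REL-DT met the filter only with chidamide libraries counted, so their p-values are descriptions.

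In other pairs the partner fell. LINC00337, now ICMT-DT, rose by 2.71 ± 0.29 (adjusted p = 3.5e-12) and 1.64 ± 0.35 (adjusted p = 4.3e-05), while ICMT, which encodes an enzyme that methylates RAS proteins, fell by 0.78 ± 0.05 and 0.34 ± 0.05 (adjusted p = 1.9e-21 and 3.6e-08). LINC00893, now EOLA1-DT, rose under the JeKo-1 label by 0.89 ± 0.25 (adjusted p = 0.0014), and its partner, listed as CXorf40A, fell by 0.59 ± 0.10 (adjusted p = 2.2e-06). In Granta-519 the same transcript changed by -0.38 ± 0.25 (adjusted p = 0.17, but 0.041 without chidamide replicate 1). The near copy LINC00894, now EOLA2-DT, may share reads with it. Its fall in Granta-519 of 0.46 ± 0.20 (adjusted p = 0.039) was lost in 8 of 19 alternatives, with adjusted p from 0.051 to 0.23, among them the fits without Granta-519 chidamide replicate 2 (0.092) or 3 (0.23), Granta-519 vehicle replicate 1 (0.16) or 3 (0.058), or chidamide replicate 2 of the JeKo-1 label (0.051).

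**Figure D5:**
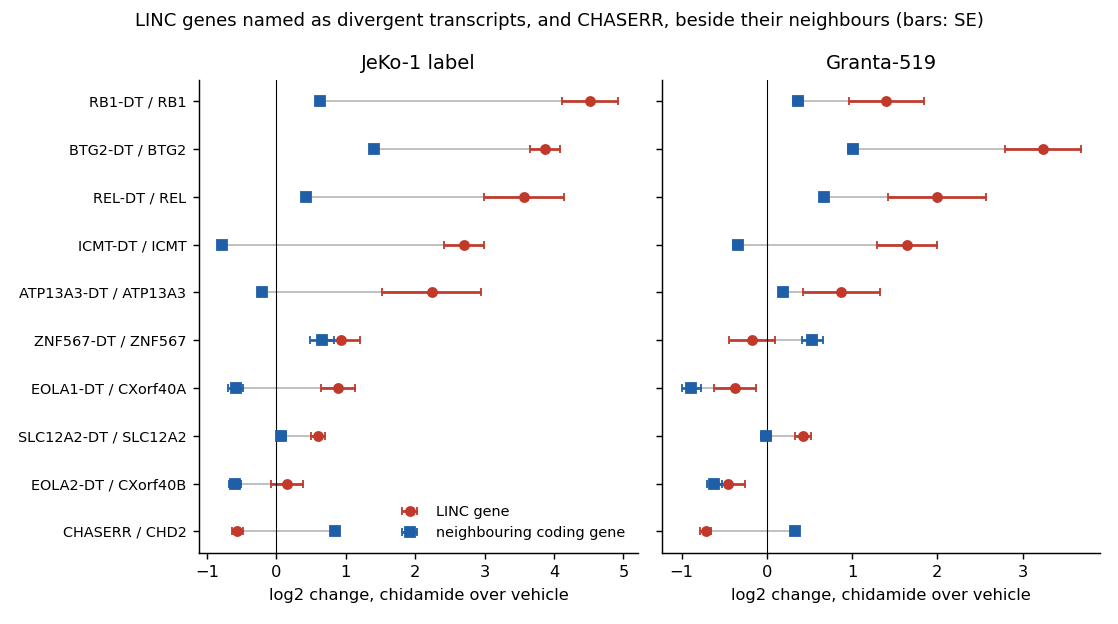
Log2 change with chidamide of the 9 LINC genes named as divergent transcripts, and of CHASERR (red circles), beside the neighbouring coding gene (blue squares), under the JeKo-1 label (left) and in Granta-519 (right), with SE. RB1-DT, BTG2-DT and REL-DT lie to the right of partners that also rose, whereas ICMT-DT and ICMT lie on opposite sides of 0.

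For 161 tested members the nearest coding gene was tested too, and 19 of these overlap the member. Of the 93 such members called higher under the JeKo-1 label, the neighbour was higher in 42, lower in 24 and not called in 27, beside the 35.3 and 31.1% of all tested genes. Of 87 in Granta-519 the neighbour was higher in 49, lower in 17 and not called in 21, beside 39.6 and 31.3%. Of the members not called, the neighbour was higher in 18 of 59 and in 28 of 63. LINC00996 rose beside GIMAP8, which had no count in the vehicle libraries of the JeKo-1 label and averaged 18.4 CPM after chidamide and 5.41 CPM after vehicle in Granta-519 (1.77 ± 0.15, adjusted p = 1.8e-15). LINC00462 rose beside RCBTB2, which rose by 1.66 ± 0.10 and 0.98 ± 0.07 (adjusted p = 3.2e-22 and 1.0e-18). LINC01311 and the neighbouring SLC25A1, the mitochondrial citrate carrier gene, both fell in both lines, SLC25A1 by 0.52 ± 0.06 and 1.08 ± 0.07 (adjusted p = 5.6e-12 and 3.8e-21).

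Whether the change differed between lines was tested as the difference of the changes, JeKo-1 label minus Granta-519. It was positive for 38 tested members (19.1%) and negative for 13 (6.53%), where 20% and 19.5% of all tested genes were so called. With no count filter the 13 became 6. LINC00996 differed most, by 4.73 ± 0.55 (adjusted p = 3.1e-10). It was nearly silent in vehicle libraries of the JeKo-1 label, but had 37.0, 37.5 and 34.9 CPM in chidamide-treated and 14.7, 16.8 and 17.6 CPM in vehicle-treated Granta-519, a rise there of 1.15 ± 0.10 (adjusted p = 7.0e-16). LINC00607 differed by 3.35 ± 0.85 (adjusted p = 0.0011), with 14, 15 and 9 counts against 0, 0 and 2 under the JeKo-1 label and 36, 35 and 41 against 25, 26 and 35 in Granta-519. RB1-DT, which met the filter only with chidamide libraries counted, differed by 3.11 ± 0.72.

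LINC00877 rose more in Granta-519. It had 21.5, 23.1 and 23.8 CPM in chidamide-treated and 4.17, 3.73 and 4.66 CPM in vehicle-treated Granta-519, a rise of 2.44 ± 0.12 (adjusted p = 1.1e-24). Under the JeKo-1 label it had 25.04, 26.3 and 23.9 CPM against 11.1, 14.5 and 13.9 CPM, a rise of 0.93 ± 0.10 (adjusted p = 8.1e-12). The difference was -1.51 ± 0.17 (adjusted p = 4.5e-11). The vehicle levels were apart, while the chidamide levels of the lines lay within 21.5 to 26.3 CPM. LINC01152 differed by -1.54 ± 0.50 (adjusted p = 0.011, but 0.055 without Granta-519 vehicle replicate 2). LINC00598, which met the filter only with chidamide libraries counted, differed by -3.30 ± 1.07. LINC01089 had 6.61, 5.76 and 8.84 CPM in chidamide and 4.44, 5.02 and 3.73 CPM in vehicle libraries of the JeKo-1 label, and 15.5, 13.5 and 16.8 CPM against 20.7, 18.9 and 20.4 CPM in Granta-519. It rose by 0.68 ± 0.16 (adjusted p = 0.00021) and fell by 0.39 ± 0.11 (adjusted p = 0.0017), a difference of 1.07 ± 0.20 (adjusted p = 1.1e-05).

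The lines were also compared in vehicle. Of the 199 tested members, 51 (25.6%) were higher and 96 (48.2%) lower under the JeKo-1 label than in Granta-519. Of all tested genes 35.5% were higher and 44.3% lower. The medians were -0.57 over members and -0.13 over all tested genes. 15 members had no count in the 6 libraries of the JeKo-1 label and 2 had none in the 6 of Granta-519. The like numbers over all genes were not counted. LINC00674 had no count in the vehicle libraries of the JeKo-1 label and 442, 491 and 430 counts in those of Granta-519, at least 394-fold lower. LINC00669, LINC00662 and LINC01224 were likewise at 0, against 533, 268 and 251 counts, at least 154-, 77.5- and 72.6-fold lower. None of these 4 was called with chidamide in either line in the main fit. Under the JeKo-1 label LINC00662 had no count with chidamide either, and the fitted change of LINC00669 was 0. No call was possible for these 2 genes there. LINC00674 in Granta-519 passed under 3 of 19 alternatives. These were the fits without JeKo-1-labelled vehicle replicate 2 (adjusted p = 0.042), with RLE size factors (0.035) and with upper-quartile scaling (0.0068). In the other direction LINC00487 had 44, 36 and 33 counts against none, at least 43.4-fold higher (adjusted p = 4.7e-15), and CYTOR was higher by 6.58 ± 0.33 (adjusted p = 1.5e-24).

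Other noncoding classes of the table, from lists of names, were set beside the members. All tested genes were 35.3% higher and 31.1% lower under the JeKo-1 label, and 39.6% and 31.3% in Granta-519. Of 358 tested antisense-named genes 175 (48.9%) were higher and 29 (8.1%) lower under the JeKo-1 label, and 139 (38.8%) and 32 (8.9%) in Granta-519. Of 410 tested genes with LOC placeholder names 196 (47.8%) were higher and 20 (4.9%) lower, and 199 (48.5%) and 23 (5.6%). The median log2 changes were 0.61 and 0.37 for antisense-named and 0.80 and 0.60 for LOC genes, beside 0.94 and 0.56 for the members. Host genes of small nucleolar RNAs went another way, with 2 higher and 11 lower of 17 under the JeKo-1 label and 5 and 4 in Granta-519. With upper-quartile scaling or library totals alone the 2 and 11 became 4 and 7. The 5 and 4 in Granta-519 became 1 and 9 with no filter and 3 and 8 with that line's libraries alone. Of 14 microRNA host genes 5 were higher and 1 lower under the JeKo-1 label and 7 and 0 in Granta-519. Without chidamide replicate 1 the 5 became 3, and the single lower call was lost without chidamide replicate 2 or 3 or vehicle replicate 2.

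Of 29 tested long noncoding RNAs known under other names, 13 (44.8%) were higher and 4 (13.8%) lower under the JeKo-1 label. In Granta-519 15 (51.7%) were higher and 7 (24.1%) lower, beside the shares of all tested genes given above. MALAT1 and NEAT1, both abundant nuclear RNAs, rose in both lines, MALAT1 by 0.83 and 0.90 and NEAT1 by 1.45 and 1.02 on the log2 scale. MIAT rose by 2.43 and 2.58. CRNDE and DANCR fell in both lines, CRNDE by 0.84 and 0.78 and DANCR by 0.21 and 0.56. Of the 666 LINC-named genes under 50 counts, 2 passed the filter.

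Markers of other cell types moved with chidamide as well, though the erythroid and megakaryocytic sums overlapped under the JeKo-1 label. The summed CPM of 8 myeloid markers was 40.7 to 42.5 in chidamide and 2.40 to 4.10 in vehicle libraries of the JeKo-1 label, and 96.0 to 104 and 26.2 to 26.5 in Granta-519. Of the 8, a count was present for 7 in chidamide and 5 in vehicle libraries of the JeKo-1 label, and for 6 and 7 in Granta-519. Most of the sum was ITGAM and CSF1R. LYZ under the JeKo-1 label had 163 counts over the chidamide and 14 over the vehicle libraries, CD33 225 and 13, and S100A9 14 and 0. In Granta-519 these 3 had at most 16 counts in a group. CD14 averaged 0.122 and 0.123 CPM under the JeKo-1 label and 0.464 and 0.386 CPM in Granta-519, and S100A8 and MPO had at most 2 counts in any group. The summed CPM of 10 T-cell and natural killer markers was 6.26 to 9.27 and 3.31 to 4.87 under the JeKo-1 label and 11.9 to 15.8 and 6.58 to 7.79 in Granta-519, with a count for 7 and 4 of the 10, and for 8 and 5. Most of that sum was NKG7 under the JeKo-1 label, at 4.58 CPM with chidamide and 3.28 with vehicle. In Granta-519 it was mostly PRF1, at 9.57 and 6.42 CPM. CD3D had 1 and 0 counts under the JeKo-1 label and none in Granta-519, whereas CD3E had 68 and 4, and 13 and 0. CD3G had 12 and 0 counts under the JeKo-1 label, and in Granta-519 CD8A had 69 and 9 and GZMB 25 and 4. That of 8 epithelial and stromal markers was 35.3 to 39.2 and 25.7 to 29.5, and 103 to 112 and 84.1 to 90.4. That of 5 erythroid and megakaryocytic markers was 0.213 to 0.318 and 0 to 0.450, and 1.22 to 1.64 and 0.316 to 0.466. Their part in the rises of LINC00861, LINC00996 and MROCKI was not tested.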

How the data were processed

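RNA, polyadenylated per the labels, was sequenced from 12 libraries, 3 in each of 4 groups taken from the library titles. The authors deposited 1 table of raw counts with a row for each symbol. The submitters' processing notes name STAR and hg19, and no source used here gives the counter, the annotation or strand use. A second deposited table, named TPM, holds a length-scaled score (the count divided by a constant of the gene and by the library total) and was used only to set levels of different genes side by side.

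Counts went into edgeR 4.0.16 (R 4.3.3), filtered with filterByExpr, scaled by TMM and fitted with glmQLFit (robust, 4 group means, 8 residual degrees of freedom) before glmQLFTest and Benjamini-Hochberg adjustment over 15087 genes at a threshold of 0.05. The SE is the absolute log2 change over the square root of F and is approximate for few counts. The test was tried on simulated data first. A fold against a group at 0 uses a floor of 3 counts over the group, and ratios with 1 to 3 counts carry 95% exact intervals; both cover counting error only. Neighbours, names and sequences came from RefSeq. No coordinates were converted between builds.

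The members and lists were chosen with earlier results of these data known. Named members are, among those tested: the 8 largest rises and 5 largest falls past the threshold with groups that do not overlap in each line, the 6 highest mean CPM, the 4 most positive and 4 most negative differences of changes, the 4 highest and 4 lowest between lines in vehicle, and the list with a known product or role. The filter left out 13 members. Same-numbered libraries did not deviate together (correlations of deviations from -0.042 to 0.055), so the replicate number was no term. No 2 libraries agreed within sampling noise (chi-square per gene 1.63 to 5.63). Alternatives were RLE, upper-quartile and no scaling factors, no count filter, DESeq2 1.42.0, fits of the contrast's own libraries, a replicate block, and leaving out each library.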

Additional observations from a re-analysis of the deposited data

Results flagged for a closer look

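For 24 of the members named, the log2 change with chidamide differed between lines by the test of the difference itself (JeKo-1 label minus Granta-519, edgeR, adjusted p under 0.05 over all tested genes). Positive differences, a change that was more positive under the JeKo-1 label, were 4.73 for LINC00996, 4.68 for LINC01317, 3.88 for LINC00540, 3.35 for LINC00607, 3.11 for LINC00441 (RB1-DT) and 1.27 for LINC00893 (EOLA1-DT). Smaller ones were 1.1 for LINC01534 (ZNF567-DT), 1.07 for LINC01089, 1.05 for LINC00998 (SMIM30), 0.98 for LINC01268 (MROCKI), 0.92 for LINC00176 and 0.72 for LINC00467. The smallest were 0.60 for LINC01138, 0.44 for LINC01420 (NBDY), 0.30 for LINC01000 and 0.28 for LINC00926.

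Negative differences, a change that was more positive in Granta-519, were -0.28 for LINC00657 (NORAD), -0.84 for LINC00634, -0.88 for LINC00987, -0.90 for LINC00883 (DUBR) and -1.51 for LINC00877. They were -1.54 for LINC01152, -3.30 for LINC00598 and -3.94 for LINC01279. LINC00441, LINC00598 and LINC01279 met the filter only with chidamide libraries counted, so their calls are descriptions. LINC01317, LINC00540 and LINC01279 each have a group without a count, so the size of their difference depends on the prior count of the fit. For LINC01317 the 3 Granta-519 counts lay in vehicle replicate 3, and without it the adjusted p was 1.0. With no count filter the difference for NORAD was -0.12 and its call was lost (adjusted p = 0.14), as was that of LINC00634 (0.052). The call was also lost without vehicle replicate 1 of the JeKo-1 label for LINC00467 (adjusted p = 0.058), without Granta-519 vehicle replicate 2 for LINC00634 (0.054) and LINC01152 (0.055), and without vehicle replicate 2 of the JeKo-1 label (0.11) or Granta-519 chidamide replicate 3 (0.065) for LINC01534. Single libraries likewise ended the calls of LINC00540 (adjusted p from 0.052 to 0.11), LINC01279 (up to 0.10) and LINC00987 (up to 0.13). Groups of 3 libraries were not tested for outlying libraries.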

How the results depend on the processing

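Of the 8 counts of members called higher or lower, 146 of 150 recomputed values lay within 1.5 times the reported one. The exceptions were the 13 lower under the JeKo-1 label, 7 with upper-quartile scaling, 7 with library totals alone and 8 without chidamide replicate 1 of that label, and the 13 with a negative difference between lines, 6 with no count filter. Leaving out each library in turn gave 107 to 117 higher and 8 to 13 lower under the JeKo-1 label, 99 to 110 and 9 to 14 in Granta-519, 32 to 38 and 9 to 13 for the difference, and 46 to 52 and 90 to 100 between vehicle libraries. Upper-quartile scaling and library totals alone moved the median of all genes under the JeKo-1 label to 0.189 and 0.174, against 0.044. With the replicate block the counts were 114 and 12, 103 and 13, 39 and 12, and 42 and 84. The replicate numbers did not pair the libraries.

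For members named, 3304 recomputed values kept their call, 93 lost it and 32 gained it, with no change of sign among called values. Calls lost in more than 4 of the 18 or 19 alternatives run for each were those of LINC00493, LINC00987 and LINC00299 under the JeKo-1 label, of LINC00894 in Granta-519, and of LINC00987, LINC01279, LINC00540 and LINC01317 for the difference. The cause was not tested. Antisense-named genes lower in Granta-519 were 32, but 21 with upper-quartile scaling and 49 with no filter. SnoRNA host genes there were 5 higher and 4 lower, but 1 and 9 with no filter and 3 and 8 with that line's libraries alone. Totals of 20 or 100 counts in place of 50 would give 279 or 178 members. Depth limits the 66 members under 1 CPM.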
